A study of Mus musculus with 3 samples.

Results

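The genes described here are 29 enzymes and enzyme regulators that carry pyruvate, glutamate and citrate into, around and out of the tricarboxylic acid (TCA) cycle, 29 of the 50600 genes counted in these libraries. They were listed by name, by function, and no level or test entered the rule, although earlier results of these data were known when the list was made. All 29 symbols were found in the files and each matched 1 gene. A further 54 genes of the pathway are given beside them.

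The libraries came from primary mouse regulatory T cells of strain C57BL/6NJ, the Foxp3-dependent CD4 T cells that restrain immune responses. They are 3 libraries of 1 group, numbered replicates 2, 3 and 4, and no second condition was analysed here. Per the file headers the cells had been activated for 16 hours. No source used here gives the activating agent, the linked culture protocol is by its name one for differentiating CD4 T cells, and age and sex were not recorded.

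Replicates 2, 3 and 4 held 41222058, 47665060 and 99097524 counted fragments, so the same gene was measured most precisely in replicate 4. All 3 libraries carry the same donor identifier, yet Xist, which is expressed from an inactive X chromosome, stood at 126, 0.331 and 36.1 TPM in them. Whether they came from separate animals is not given. Foxp3 stood at 76.4, 82.3 and 83.9 TPM. All 4 T cell markers and all 4 regulatory T cell markers examined reached 1 TPM in every library, with summed levels of 2788 to 2879 and 1108 to 1209 TPM. Summed markers of B cells (3 genes) came to 1.88 to 2.07 TPM, of myeloid cells (3 genes, of which Lyz2 and Csf1r had no fragment) to at most 0.0489, of NK cells (2 genes) to at most 0.106 and of erythroid cells (3 genes) to at most 0.0378. Cytotoxic CD8 T cell markers (3 genes) summed to 24.6 to 28.96 TPM, nearly all from Cd8b1, while Cd8a was at 0.416 ± 0.0858 TPM (SD, n = 3). TPM is the count divided by exon length and scaled to the same total in each library, so it compares genes within a library. In such bulk samples, fewer cells that express a gene and less RNA per cell cannot be told apart.

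Pyruvate enters the mitochondrial cycle along 2 routes: oxidation to acetyl-CoA by the pyruvate dehydrogenase complex, or carboxylation to oxaloacetate by pyruvate carboxylase. The cycle then oxidises acetyl-CoA through citrate, isocitrate, oxoglutarate, succinate, fumarate and malate. Glutamine refills it at oxoglutarate by way of glutamate, and citrate that leaves the mitochondrion is split by Acly into cytosolic acetyl-CoA for lipid synthesis and histone acetylation. Several steps have a mitochondrial and a cytosolic enzyme encoded by separate genes, and activated T cells draw on these routes to grow.

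The 29 genes fell into a large group at higher levels and a small low group. In every library 28 of the 29 stood at 1 TPM or higher, 24 at 10 or higher and 18 at 100 or higher, where the shares of the 21764 protein-coding genes were 45.6%, 34.8% and 8.80%. The median over the members of the mean level was 123 TPM (medians of 129, 127 and 121 TPM in replicates 2, 3 and 4), beside 0.355 TPM over all protein-coding genes and 32.3 TPM over the 9926 at 1 TPM or more in every library. Together they took 0.464%, 0.477% and 0.459% of fragments in replicates 2, 3 and 4 (95% Wilson intervals 0.462% to 0.466%, 0.475% to 0.478% and 0.457% to 0.460%). Pdhx, at 32.6 TPM, was the lowest of the large group, and the next gene down, Pdp1, was at 5.58 TPM. Pdk2, Pcx, Idh1 and Me1 lay below that.

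**Figure D1:**
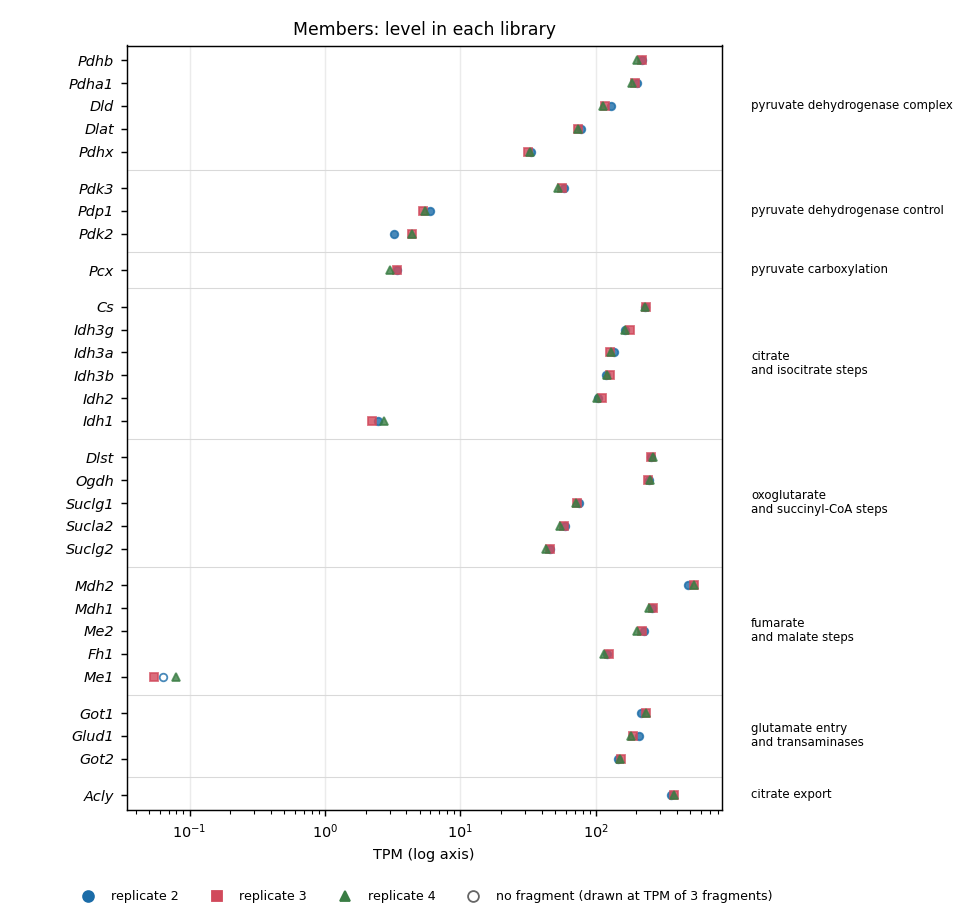
Level of each of the 29 members in TPM (log axis) in replicates 2, 3 and 4, grouped by role; an open symbol marks a library without a fragment, drawn at the TPM of 3 fragments. Mdh2 and Acly lie farthest to the right, Pdp1, Pdk2, Pcx and Idh1 lie between 2.22 and 6.02 TPM, and Me1 lies below 0.1 TPM.

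Promoters of the members highest and lowest in TPM are shown, with those of the isocitrate dehydrogenase pair that lies farthest apart. Their letters can thus be set beside their levels. Each runs from 250 bases before to 50 after the outermost RefSeq start (GRCm38.p6), 5′ to 3′ on the gene's strand, and capitals mark letters within a match to a motif searched below. They lie on the minus strand at chr7:80115301-80115600 (Idh2), chr1:65186430-65186729 (Idh1) and chr9:86695865-86696164 (Me1), and on the plus strand at chr5:135778399-135778698 (Mdh2). The gene bodies in the files (mm10) are Idh2 (ENSMUSG00000030541.16) at chr7:80094846-80115392, Idh1 (ENSMUSG00000025950.16) at chr1:65158616-65186500, Me1 (ENSMUSG00000032418.15) at chr9:86581371-86695953 and Mdh2 (ENSMUSG00000019179.10) at chr5:135778480-135790398.
Idh2: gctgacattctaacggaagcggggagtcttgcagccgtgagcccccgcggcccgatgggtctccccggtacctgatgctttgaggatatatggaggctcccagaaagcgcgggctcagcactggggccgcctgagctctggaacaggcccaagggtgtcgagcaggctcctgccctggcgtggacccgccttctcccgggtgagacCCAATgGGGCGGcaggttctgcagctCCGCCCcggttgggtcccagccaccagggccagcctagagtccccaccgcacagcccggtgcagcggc
Idh1: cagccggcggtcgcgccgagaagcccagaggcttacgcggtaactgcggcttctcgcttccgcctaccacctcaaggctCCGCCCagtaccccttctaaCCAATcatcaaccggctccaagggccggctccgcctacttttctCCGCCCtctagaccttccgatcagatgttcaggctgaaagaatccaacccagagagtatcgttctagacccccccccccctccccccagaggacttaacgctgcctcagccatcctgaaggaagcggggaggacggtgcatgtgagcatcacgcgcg
Mdh2: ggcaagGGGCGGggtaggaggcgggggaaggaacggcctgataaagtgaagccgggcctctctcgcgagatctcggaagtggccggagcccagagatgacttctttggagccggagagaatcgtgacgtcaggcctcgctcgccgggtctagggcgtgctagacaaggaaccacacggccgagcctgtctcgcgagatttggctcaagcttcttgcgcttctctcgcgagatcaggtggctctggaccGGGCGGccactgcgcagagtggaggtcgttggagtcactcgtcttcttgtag
Me1: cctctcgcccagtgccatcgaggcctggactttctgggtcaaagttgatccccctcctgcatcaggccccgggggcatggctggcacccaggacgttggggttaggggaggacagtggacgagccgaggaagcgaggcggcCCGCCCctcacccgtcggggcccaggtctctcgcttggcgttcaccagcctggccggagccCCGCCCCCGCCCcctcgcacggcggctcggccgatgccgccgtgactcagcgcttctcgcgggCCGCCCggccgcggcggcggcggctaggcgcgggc

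All 4 are rich in CpG dinucleotides, which mark the promoters of most broadly expressed mammalian genes. Mdh2 had 27 CpG in 300 bases at a level of 516 TPM, and Me1 had 35 at a level below 0.1 TPM. Idh2 and Idh1 had 20 and 23. Over the 26 members with a promoter analysed, CpG counts ran from 13 (Suclg2) to 51 (Glud1) with a median of 22, beside a median of 7 over all 32851 promoters in the table. The scarce Me1 and Idh1 thus lay above that median, as did the abundant Mdh2. Idh3a, Pdp1 and Me2 were not included.

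Short motifs were searched on both strands in the 26 promoters. The GC box GGGCGG was in 18 of 26 (69.2%; 35.7% of all promoters) and CCAAT in 16 (61.5%; 37.4%). The E-box CACGTG, the core bound by MYC with MAX, was in 2, Pdk2 and Pcx (7.69%; 7.15% of all promoters), both among the scarce members. The NRF1-type core GCGCATGC was in Glud1 alone (3.85%; 2.71%), the ERR-type core AAGGTCA in Got1 alone (3.85%; 4.72%) and TATAAA in Got2 alone (3.85%; 13.6%). Motifs could overlap one another, and these are matches of letters in 1 window per member gene, not measured binding. The shares over all promoters count every listed start of a gene, whatever its level, so the sets compared are unlike.

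The pyruvate dehydrogenase complex was expressed in all of its subunits, at levels that differed between subunits. Pdha1, which encodes the alpha subunit of the decarboxylating enzyme and lies on the X chromosome (160122209 to 160138413, mm10), stood at 201, 194 and 187 TPM in replicates 2, 3 and 4. Its partner Pdhb, the beta subunit, was at 220, 218 and 202 TPM. The acetyl-transferring core enzyme Dlat was at 77.2, 74.5 and 74.6 TPM and Pdhx, which tethers the dihydrolipoamide dehydrogenase to that core, at 33.5, 31.6 and 32.6. Dld itself, a subunit shared with the oxoglutarate and branched-chain dehydrogenases, was at 129, 117 and 113 TPM. The order Dld, Dlat, Pdhx was the same in 3 of 3 libraries. Pdhb against Pdha1 gave a log2 difference of 0.14 ± 0.03 on the log2(TPM + 1) scale, but -1.18 in CPM and -0.92 with the longest annotated transcript as the length, where the deposited exon length of Pdhb (1485 bases) gives way to a longer transcript (2377 bases). No order of Pdha1 and Pdhb can therefore be read from the data.

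Regulators of the complex were present as particular isoforms. Kinases of the Pdk family phosphorylate and switch off pyruvate dehydrogenase, and the Pdp phosphatases reverse this. Pdk3 was at 58.2, 56.5 and 53.1 TPM, whereas Pdk2 was at 3.24, 4.39 and 4.42 TPM. The ranges do not overlap, and Pdk3 exceeded Pdk2 by 14.3 ± 3.23-fold (12.0 to 18.0 in single libraries). Of the kinases outside the member list, Pdk1 was at 40.0, 36.7 and 37.5 TPM and Pdk4, known for its induction in fasting muscle and liver, had no fragment in any library, where 3 fragments would make at most 0.0700 TPM. Pdk1 lay below Pdk3 in TPM in 3 of 3 libraries (log2 difference -0.54 ± 0.06), while in CPM, which takes no account of length, the difference was 1.03.

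Of the phosphatases, the member gene was the lower one. Pdp1 was at 6.02, 5.26 and 5.46 TPM, and Pdp2, outside the member list, was at 31.3, 26.7 and 30.9 TPM. Pdp2 was higher in 3 of 3 libraries, by 5.31 ± 0.315-fold. The phosphatase regulatory subunit Pdpr stood at 23.0 ± 1.62 TPM (SD, n = 3).

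Pyruvate carboxylase was scarce. Pcx had 179, 208 and 377 fragments, or 3.43, 3.40 and 3.02 TPM, with exact 95% Poisson intervals of 2.95 to 3.97, 2.95 to 3.89 and 2.72 to 3.34 TPM that overlap one another. Pdha1 exceeded it by 59.2 ± 2.41-fold (57.2 to 61.8). Among the 9926 protein-coding genes detected at 1 TPM in every library, Pcx ranked above 7.08% and Pdha1 above 90.3%.

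Paired results in all of these paragraphs were tested within libraries. Flipping the signs of the differences in 3 libraries, an exact permutation test (two-sided), cannot go below p = 0.25, and it gave that value for 17 of the 18 pairs examined (0.265 after Benjamini-Hochberg adjustment over the 18). For Idh3b against Idh3a the exact test gave p = 0.5. None can pass a threshold of 0.05, so the sizes, the spread between libraries and the agreement of sign are what the pairs rest on. The sign was the same in 3 of 3 libraries for those 17.

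Citrate synthase, which opens the cycle, had the lowest spread of the members in TPM but not in CPM. Cs stood at 233, 234 and 233 TPM, a coefficient of variation of 0.314%, lower than all but 0.284% of the 7743 protein-coding genes at 10 TPM or more on average. In CPM its coefficient of variation was 1.86%, above Ogdh (1.04%), Dlat (1.21%) and Pdhx (1.31%), and its libraries differed in the chi-square test described further on (adjusted p 0.0030, CPM ratio 1.04), unlike those of these 3 genes. Its intronless paralog Csl, which shares 115 windows of 50 bases with it, had 4, 5 and 19 fragments. The cytosolic gene Aco1, not a member, whose protein also acts as an iron sensor, was at 67.2, 69.4 and 68.4 TPM.

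Of the isocitrate dehydrogenase genes, those of the mitochondrial enzymes stood far above the cytosolic Idh1 in RNA level. Idh3a, Idh3b and Idh3g encode the alpha, beta and gamma subunits of the NAD-dependent enzyme of the cycle. Idh3a was at 137, 127 and 129 TPM, Idh3b at 119, 128 and 121, and the X-linked Idh3g at 164, 179 and 164. The alpha and beta values overlap in TPM, and their log2 difference (Idh3b against Idh3a), -0.09 ± 0.11, changed sign between libraries. It was -0.66 in CPM and -0.33 with transcript lengths, so the size of this gap depends on gene length. Idh3g against Idh3a was 0.36 ± 0.12 but turned to -0.54 in CPM and -0.23 with transcript lengths, so that order depends on the gene model.

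Of the NADP-dependent enzymes, Idh2 works in mitochondria and Idh1 in the cytosol and peroxisomes. Idh2 was at 105, 110 and 102 TPM. Idh1 had 84, 88 and 220 fragments, or 2.48, 2.22 and 2.72 TPM (exact 95% Poisson intervals 1.98 to 3.08, 1.78 to 2.73 and 2.37 to 3.10). The lowest Idh2 value is far above the highest Idh1 value, with a ratio of 42.1, 49.8 and 37.6 in replicates 2, 3 and 4. No exon base of Idh1 is shared with another gene on its strand, and none of its 50-base windows occurs in the transcripts of another gene.

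Oxoglutarate dehydrogenase, the step at which glutamine-derived carbon enters, was high in both of its own subunits. Ogdh, the decarboxylating subunit, was at 248, 242 and 250 TPM and Dlst, its succinyl-transferring core, at 254, 257 and 265. Dlst exceeded Dlat, the corresponding core gene of pyruvate dehydrogenase, by 3.43 ± 0.130-fold, a log2 difference of Dlat from Dlst of -1.76 ± 0.05 (-1.27 with transcript lengths and -0.95 in CPM). Ogdhl, a paralog best known from brain, was at 0.879, 1.03 and 1.11 TPM, and Ogdh exceeded it by 247 ± 30.6-fold. On the log2(TPM + 1) scale, where the added 1 narrows the gap to a gene near 1 TPM, the difference was 6.95 ± 0.09. It was 7.81 with 0.1 added instead, and 7.63 in CPM.

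Succinyl-CoA ligase genes were lower than their neighbours in the cycle. Suclg1, the shared alpha subunit, was at 75.8, 72.9 and 71.2 TPM. Sucla2, the beta subunit that makes ATP, was at 58.9, 58.3 and 54.2 TPM and Suclg2, the one that makes GTP, at 45.6, 45.7 and 43.2. Sucla2 exceeded Suclg2 in 3 of 3 libraries by 1.28 ± 0.0182-fold in TPM. The log2 difference of 0.34 ± 0.02 was 0.14 in CPM and 0.72 with transcript lengths, so the size of the margin depends on gene length. Suclg2 may be undercounted: 15.96% of its 50-base windows occur in the transcripts of other genes, most of them in Gm15163, which had 300, 348 and 668 fragments of its own. Succinate dehydrogenase, the following step and also part of the respiratory chain, was at 345 ± 2.28 TPM for Sdha, 185 ± 7.08 for Sdhb, 107 ± 2.48 for Sdhc and 469 ± 20.4 for Sdhd.

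Malate genes included the highest member in TPM and the lowest. Fh1, the fumarase of both compartments, was at 121, 126 and 116 TPM. Mdh2, the mitochondrial malate dehydrogenase, was at 483, 536 and 529 TPM, the highest of the 29 in every library on that scale. In CPM, Acly was above Mdh2 in every library, at 560, 606 and 597 against 504, 577 and 559. The cytosolic Mdh1 was at 261, 263 and 247 TPM. Mdh2 exceeded Mdh1 by 2.01 ± 0.149-fold; the log2 difference of 1.00 ± 0.11 became 1.87 with transcript lengths, a larger gap in the same direction.

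Malic enzymes turn malate into pyruvate, and of their 3 genes the mitochondrial NAD-linked one alone reached 1 TPM. Me2 was at 226, 219 and 201 TPM. Me1, which encodes the cytosolic NADP-linked form typical of liver and fat, had 0, 3 and 9 fragments. Me2 was thus at least 3532-fold higher in replicate 2 (Me1 set at 3 fragments, 0.0639 TPM), 4029-fold higher in replicate 3 with a 95% counting interval of 1378 to 19543, and 2517-fold higher in replicate 4. On the log2(TPM + 1) scale the difference was 7.69 ± 0.14, and 6.91 with transcript lengths. Me3, the mitochondrial NADP-linked form, had no fragment in any library. Of the 50-base windows of Me1, 22.9% occur in transcripts of other genes.

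**Figure D2:**
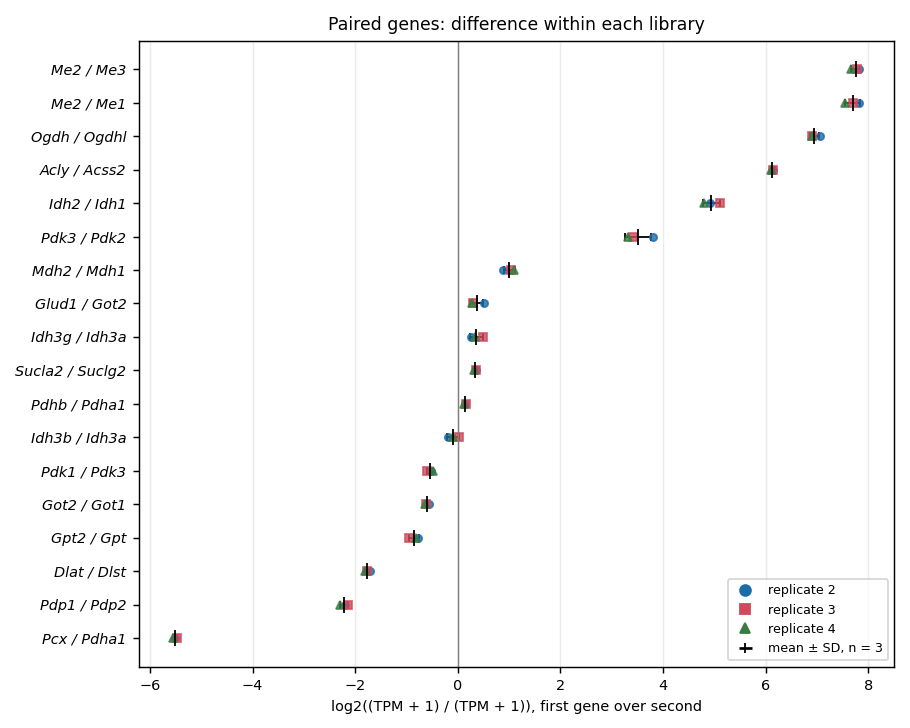
Difference within each library for the 18 gene pairs, as log2 of (TPM + 1) of the first gene over (TPM + 1) of the second; symbols are replicates 2, 3 and 4, and black bars the mean ± SD (n = 3). The pairs of Me2 with Me3 and with Me1 lie farthest to the right, Pcx with Pdha1 farthest to the left at -5.51, and Idh3b with Idh3a crosses 0.

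Glutamate passes into the cycle as oxoglutarate through glutamate dehydrogenase or the transaminases, and the levels of all 3 member genes of this step lay between 146 and 234 TPM. Glud1 was at 209, 189 and 183 TPM. The aspartate aminotransferases of the malate-aspartate shuttle were at 216, 234 and 233 TPM for the cytosolic Got1 and 146, 153 and 150 TPM for the mitochondrial Got2. Got1 was higher in TPM in 3 of 3 libraries (log2 difference of Got2 from Got1 -0.60 ± 0.03), but the difference was 0.32 in CPM and 0.02 with transcript lengths. That of Glud1 from Got2 went from 0.37 ± 0.13 to -0.29 with transcript lengths, so neither order is firm. Got2 also shares 16.8% of its 50-base windows with Got2-ps1, a copy that had 101, 95 and 219 fragments.

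Other genes of glutamine and glutamate use spanned a wide range. Gls2 was at 8.56, 10.1 and 8.65 TPM, and Glul, which makes glutamine from glutamate, was at 78.4, 80.6 and 79.4 TPM. Among the transaminases, Psat1 of serine synthesis was at 316 ± 9.02 TPM, against 9.26 ± 0.591 for Gpt and 4.70 ± 0.617 for Gpt2, the cytosolic and mitochondrial alanine aminotransferases. Gpt2 was below Gpt by a log2 difference of -0.85 ± 0.09, which turned to 0.61 in CPM and 0.28 with transcript lengths.

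The use of exported citrate was represented among the members by 1 abundant gene. Acly stood at 362, 380 and 382 TPM, below Mdh2 and above all remaining members without overlap of library ranges, although with transcript lengths Cs, at 354 TPM, stood level with it at 353. Acss2, which makes cytosolic acetyl-CoA from acetate, was at 4.14, 4.36 and 4.57 TPM, and Acly exceeded it by 86.1 ± 2.28-fold. On the log2(TPM + 1) scale the difference was 6.13 ± 0.03, and 6.39 with 0.1 added instead of 1. The value of 6.13 fell to 5.38 in CPM and 5.05 with transcript lengths. Slc25a1, the carrier that brings citrate out of the mitochondrion, was at 230 ± 10.3 TPM (SD, n = 3).

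Ordered by level in TPM, the members formed a graded series. Of the 28 neighbouring pairs in that order, 16 did not overlap in their library ranges and 12 did. Dlst, Mdh1 and Ogdh followed one another with overlapping ranges, as did Cs, Got1, Me2 and Pdhb, and Idh3a, Idh3b, Fh1 and Dld. Steps lay between Mdh2 and Acly, between Acly and Dlst, between Idh2 and Dlat, and between Pdhx and Pdp1, but with transcript lengths Cs met Acly, and Pdhb (105 TPM), Suclg1 (96.6) and Sucla2 (80.8) came to lie between Idh2 and Dlat. Positions within the series rest on exon length: with transcript lengths, Mdh2 moved up from 516 to 904 TPM, Cs from 233 to 354 and Idh3a from 131 to 204, while Pdhb moved down from 213 to 105 and Me2 from 215 to 124.

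Most members differed little between the 3 libraries, with a CPM ratio of 1.2 or more in Pdk2 and Idh1 among the 28 tested. A chi-square test of equal rates, with Benjamini-Hochberg adjustment over the 13688 genes with at least 30 fragments, called 22 of the 28 members tested at an adjusted p under 0.05, beside 70.5% of all genes tested and 81.7% of the 7743 protein-coding genes at 10 TPM or more on average. That test measures counting error only, and at this depth it separates differences of a few percent. None of the 28 also reached a highest-to-lowest CPM ratio of 2, as 11.0% of all genes tested and 0.129% of the protein-coding genes at 10 TPM or more did. The median ratio of the members was 1.10, beside 1.19 over all genes tested and 1.13 over the protein-coding genes at 10 TPM or more. Me1, with 12 fragments in all, was not tested.

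The member with the widest ratio was Pdk2, lower in replicate 2 than in replicates 3 and 4 (3.24 against 4.39 and 4.42 TPM). Its CPM ratio was 1.398 with an adjusted p of 0.0063 (chi-square test), and without replicate 2 the ratio was 1.01 and the adjusted p 0.93, so this call rests on that library. Mdh2 was likewise lowest in replicate 2, with a ratio of 1.15 and an adjusted p of 1.1e-50. Glud1 and Dld were highest in replicate 2 and lowest in replicate 4, with ratios of 1.13 and 1.13. The calls of Dld, Glud1, Got2, Mdh1 and Mdh2 held with each library left out in turn.

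More members were higher than lower in replicate 3, by counts that depended on the scale. In CPM, 21 of the 28 (75.0%) were higher in replicate 3 than the mean of the other 2 libraries, with a median log2 difference of 0.07, beside 50.1% and 0.00 over all genes tested and 54.1% of the protein-coding genes at 10 TPM or more. In TPM, 18 of 28 (64.3%) were higher in replicate 3, beside 42.0% of all genes tested and 42.4% of those protein-coding genes. In replicate 4, 20 of 28 were lower in CPM, with a median of -0.05, beside 0.01 over all genes, and 19 of 28 in TPM. Over all 13688 genes tested, 6355 were lower in replicate 4 in CPM and 6140 in TPM. In replicate 2, 15 (53.6%) were higher in CPM and 18 (64.3%) in TPM, beside 48.0% and 53.2% of all genes tested. In TPM the count in replicate 2 thus equalled that in replicate 3. Of the 22 members called, 16 were highest in replicate 3 by CPM, 5 in replicate 2 and 1, Dlst, in replicate 4, whereas by TPM 10 were highest in replicate 3, 9 in replicate 2 and 3 (Pdk2, Dlst and Acly) in replicate 4. That split was not taken over all genes. The part that depth and the other differences between the libraries have in these counts was not tested.

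**Figure D3:**
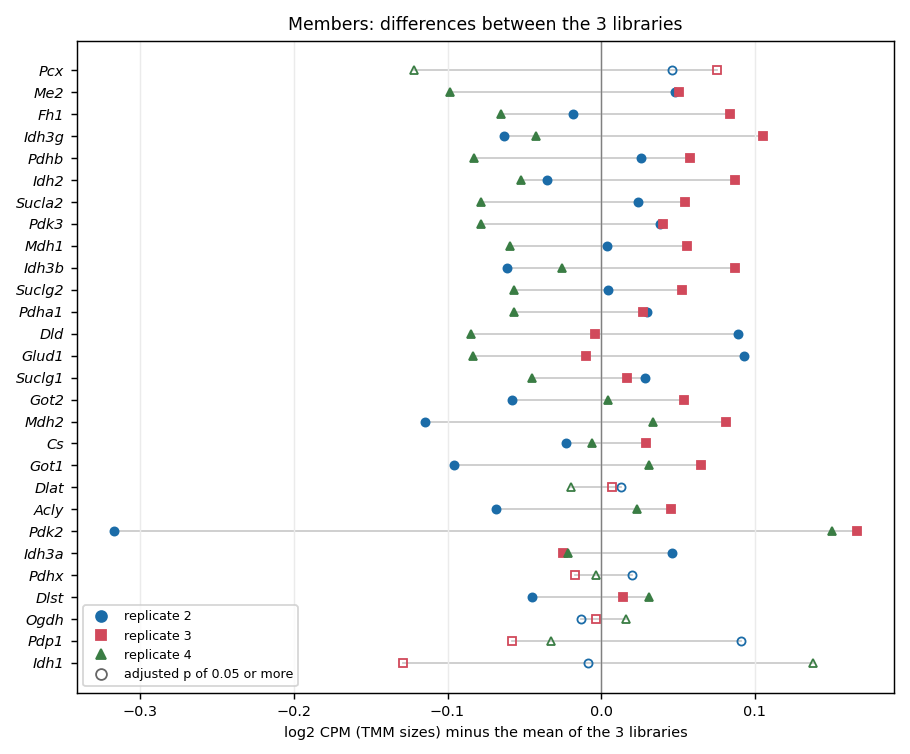
Deviation of each tested member in each library from its own mean over the 3 libraries, in log2 CPM on trimmed-mean (TMM) library sizes; open symbols mark members with an adjusted p of 0.05 or more. Replicate 3 lies to the right for most members, and the widest spread is that of Pdk2, with replicate 2 on the left.

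The 3 X-linked members were set beside Xist, which was highest in replicate 2 and lowest in replicate 3. Pdha1 followed the order of replicates 2, 3 and 4 at 201, 194 and 187 TPM, Pdk3 at 58.2, 56.5 and 53.1, and Idh3g was highest in replicate 3 at 179 against 164 and 164. Their CPM ratios were 1.06, 1.09 and 1.12, whereas Xist ran from 0.331 to 126 TPM. Among all 460 X-linked genes tested, 52 (11.3%) passed both criteria, near the share of all genes.

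The 54 other genes of the pathway reached from no fragment to the level of Ldha. Of these, 40 reached 1 TPM in every library, 12 stayed below it in every library and 8 had no fragment (Pdha2, Pdk4, Me3, Got1l1, Pck1, Acod1, Slc25a18 and Slc25a21). The test between libraries called 30 of the 43 with enough fragments, beside 70.5% of all genes tested. By CPM, 14 of the 30 were highest in replicate 3, a count not taken over all genes. Of the 30, 1 passed the ratio of 2, beside 11.0% of all genes tested. It was Aldh5a1 at 1.09, 0.519 and 0.588 TPM, from 75, 42 and 97 fragments (CPM ratio 2.03, adjusted p 8.2e-05, chi-square test).

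Pyruvate reaches the matrix through a carrier made of Mpc1, at 43.3 ± 1.07 TPM, and Mpc2, at 14.9 ± 1.29, and Mpc1 was the highest of its list of 10 genes of transport, control and lipoylation. Lipoic acid, the swinging arm of Dlat and Dlst, depends on Lias (28.4 ± 2.62 TPM), Lipt2 (18.3 ± 0.560) and Lipt1 (12.7 ± 1.08). Of the 8 further cycle enzymes given here, Aco1 was highest at 68.3 ± 1.10 TPM and Me3 lowest. In the list of 8 succinate dehydrogenase genes, the range ran from Sdhd to the assembly factor Sdhaf3 at 4.04 ± 0.140 TPM.

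Among 10 genes of glutamine and glutamate use, Psat1 was highest and Got1l1 had no fragment. Lactate dehydrogenase Ldha, which diverts pyruvate from the mitochondrion, was at 2550, 2707 and 2577 TPM, and led the 7 genes of pyruvate, acetate and phosphoenolpyruvate exchange. Its paralog Ldhb was at 49.7 ± 3.57 TPM. Of the phosphoenolpyruvate carboxykinases, the mitochondrial Pck2 was at 26.9 ± 0.720 TPM and the cytosolic Pck1 had no fragment. Acod1, which makes itaconate in activated macrophages, had none either. Slc1a5, a glutamine importer of the plasma membrane, led the 11 carriers at 376 ± 16.1 TPM.

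**Figure D4:**
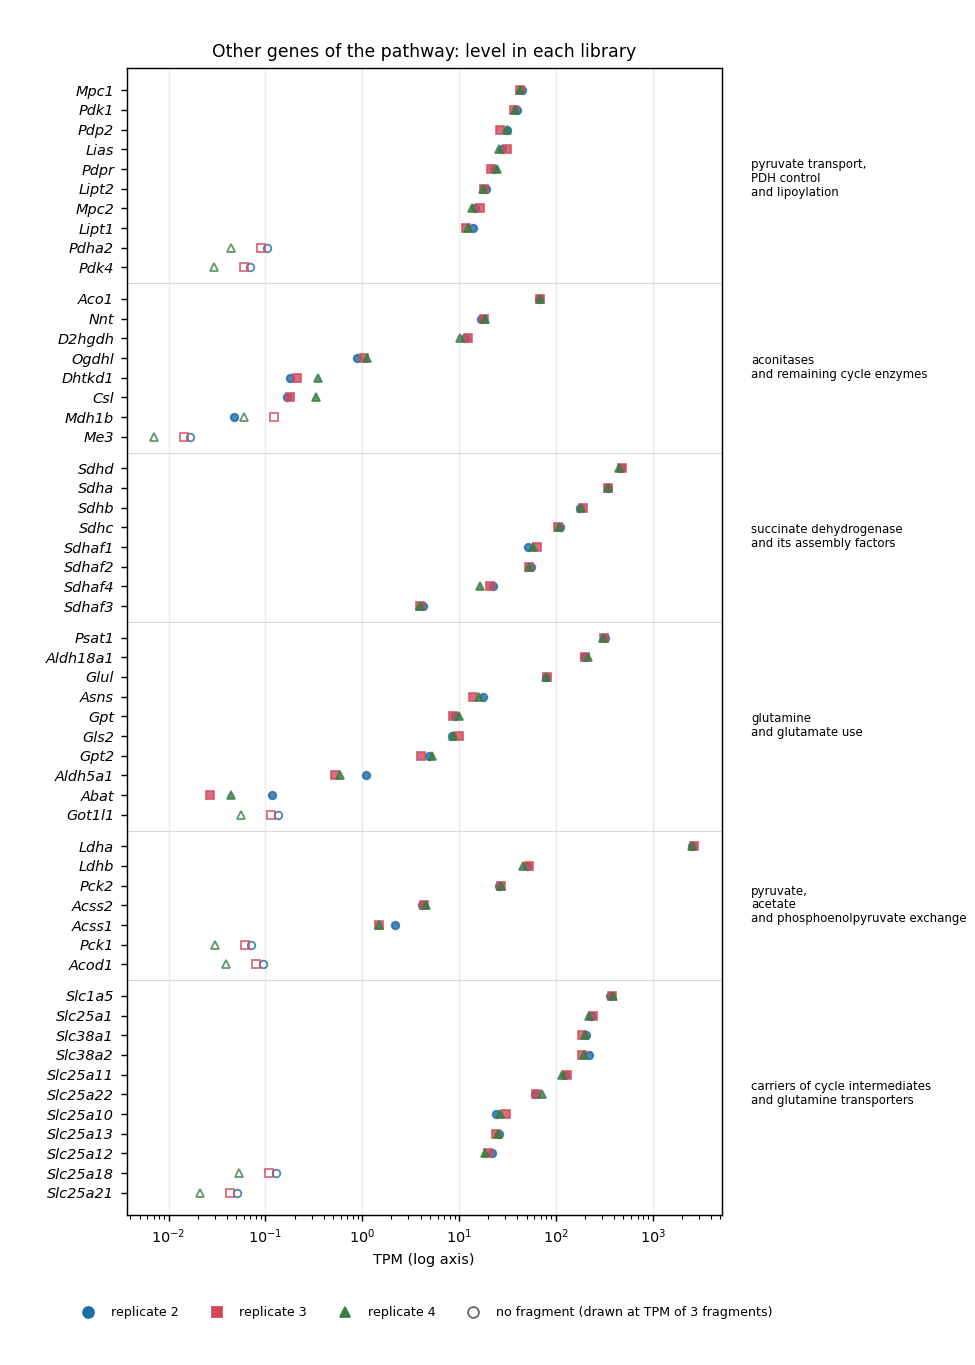
Level of the 54 other pathway genes in TPM (log axis) in replicates 2, 3 and 4, grouped by list; open symbols mark libraries without a fragment, drawn at the TPM of 3 fragments. Ldha lies farthest to the right, and the 8 genes without any fragment carry open symbols in all 3 libraries.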

How the data were processed

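RNA of 3 libraries of mouse regulatory T cells was sequenced. The files the authors deposited hold unnormalized counts of fragments per gene, exon lengths and coordinates. Per the file headers these counts were made by featureCounts 1.4.6-p4 with its paired and reverse-strand options, over exons of GENCODE mouse M13, keeping pairs with both ends aligned. The build is mm10 per the labels; no source used here gives the aligner settings. The headers show no option for fragments that align to several places, which that program leaves out by default, so genes with near copies can be undercounted.

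The other deposited value used, the merged exon length of each gene per the file headers, served to compute TPM. Symbols came from GENCODE M21 by unversioned identifier (50376 of 50600 matched), and promoters from RefSeq (26 of the 29 members analysed). Library sizes were scaled with TMM (edgeR 4.0.16, R 4.3.3). With 1 group, edgeR's quasi-likelihood test had no contrast. Libraries were compared by the chi-square test over all genes (2 degrees of freedom), and gene pairs by the sign-flip test on log2(TPM + 1). The chi-square test was checked only on counts simulated with counting error alone, without further spread between libraries. SDs and the sign-flip p-values rest on the spread between these libraries, which may be technical. The chi-square p-values set that spread against counting error alone. Wilson and Poisson intervals and the floor of 3 fragments cover counting error only. Python 3.11.15, numpy 2.4.6, pandas 2.3.3 and scipy 1.17.1 were used.

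All 29 members and the genes of the 18 pairs are named; of the other pathway genes, the highest and lowest of each list, those past both criteria, and further genes chosen after their values were seen. The members and lists were chosen with earlier results of these data known. Some other genes of the pathway, and the pairs that hold them, are not reported here. Alternatives were DESeq2 1.42.0 size factors, total fragments, no count minimum, a ratio of 1.5, a pseudocount of 0.1, CPM, the longest M21 transcript as length, and leaving out each library; the count of members higher in each library was also taken in TPM, chosen after seeing the data.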

Additional observations from a re-analysis of the deposited data

How the results depend on the processing

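The counts of members at 1, 10 and 100 TPM, their median level and the 18 pairs kept direction when each library was left out. Gene length decided several pairs. In CPM the log2 difference was 0.32 for Got2 against Got1, -1.18 for Pdhb against Pdha1, -0.54 for Idh3g against Idh3a, 1.03 for Pdk1 against Pdk3 and 0.61 for Gpt2 against Gpt, each opposite in sign to TPM. With the longest transcript as length it was 0.020 for Got2 against Got1, -0.92 for Pdhb against Pdha1, -0.23 for Idh3g against Idh3a, -0.29 for Glud1 against Got2 and 0.28 for Gpt2 against Gpt, also opposite. The other 12 pairs kept their direction under CPM, transcript length and a pseudocount of 0.1, which moved Me2 against Me1 from 7.69 to 10.6 because Me1 is near 0.

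Scaling by DESeq2 size factors or total fragments left 22 members called and none at a ratio of 2; with TMM none reached a ratio of 1.5 either. With each library left out, 15 to 17 members were called and 0 at a ratio of 2; over all genes the counts fell from 9647 to between 6118 and 6780, and from 1505 to between 523 and 777 with the ratio. Without a count minimum, 2821 genes passed both criteria, since sparse genes then enter. No paired comparison of conditions was possible because there is only 1 group. For Idh1, Pcx, Pdk2 and Me1, with at most 409 fragments per library, depth limits the values.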

Other observations

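D2hgdh, which removes the side product D-2-hydroxyglutarate, was at 11.6, 12.5 and 10.2 TPM in replicates 2, 3 and 4. Aldh18a1, which turns glutamate towards proline, was at 197, 202 and 216 TPM. Abat and Aldh5a1, the enzymes that return gamma-aminobutyrate to the cycle as succinate, were at 0.0625 ± 0.0474 and 0.732 ± 0.311 TPM (SD, n = 3).

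The mitochondrial carriers were unequal. The oxoglutarate carrier Slc25a11 was at 122 ± 7.14 TPM, and the glutamate carrier Slc25a22 at 61.0, 61.9 and 71.9 TPM, while its paralog Slc25a18 had no fragment. The aspartate-glutamate carriers Slc25a12 and Slc25a13 were at 20.2 ± 1.63 and 25.2 ± 1.02 TPM, below the Got1 and Got2 genes of the same shuttle. Slc25a10, the dicarboxylate carrier, was at 24.3, 30.8 and 26.6 TPM.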
